A study of Mus musculus with 6 samples.

Results

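Amino acid catabolism in the liver was read from 39 enzymes, chosen by gene name. The list was drawn up with earlier results of these data known, so its shares beside all tested genes are descriptive. It covers the transaminases and the pathways of aromatic amino acids, tryptophan, sulfur amino acids and methionine. The pathways of glycine and serine, histidine, branched-chain amino acids, and proline and lysine are covered too. All 39 were found once each among the 24034 genes of the deposited liver table, and all 39 reached the level set for testing, which 13250 genes did. The table holds 6 RNA-seq libraries of C57BL/6 mouse liver at 25 weeks of age, 3 of genotype lncenc1wt/wt (WT) and 3 of genotype lncenc13A/3A (HO). The series' design text calls the mutants knockouts of Lncenc1, a long non-coding RNA gene, and the labels do not say what the 3A allele changes. Both groups share the strain, the age and the absence of any stated treatment. Genotypes were taken from the labels alone, because RNA of Lncenc1 was not analysed here. The labels do not tie libraries to animals, so each p-value measures sample spread that may be technical. The comparison asks how RNA of these enzymes differs between mutant and wild type liver.

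The liver takes apart most amino acids that arrive from the gut. Transaminases move the amino group to glutamate or alanine, the nitrogen goes to urea, and each carbon skeleton has its own chain of enzymes that ends in glucose precursors, ketone bodies or the citric acid cycle. Several of these enzymes, Tat and Tdo2 among them, are textbook targets of glucocorticoids and glucagon, and many are richest in hepatocytes near the portal vein. Tryptophan is opened by Tdo2 and passes along the kynurenine pathway to an unstable intermediate, which either closes by itself to quinolinate, a precursor of NAD, or is drawn off to complete oxidation by Acmsd.

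In HO livers Acmsd rose 2.43-fold, and it was the only enzyme of the 39 that passed the test (limma on log2(FPKM + 0.5), Benjamini-Hochberg adjusted p under 0.05 over all tested genes). That is 2.56% of the enzymes called in either direction, against 1.14% of all tested genes, and 1 call is not a result about the enzymes as a group. Over all tested genes 0.325% were called higher and 0.815% lower, and 0 enzymes were called lower (9 at an unadjusted p under 0.05). The next smallest p values belonged to Aadat and Aass, both of lysine breakdown, and to Kmo of the kynurenine pathway, all with higher values in HO. Several enzymes of histidine, branched-chain and sulfur amino acid breakdown had lower values in HO and did not pass. The 5 enzymes of phenylalanine and tyrosine breakdown had overlapping values in both groups.

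For Aadat, Kmo and Aass, which had the smallest p after Acmsd, the 250 bases before the RefSeq transcript start are shown, from the GRCm38.p6 build, 5′ to 3′ on the strand of the gene. Capitals mark matches to the motifs named in the next paragraph.
Aadat, chr8:60505874-60506123, plus strand: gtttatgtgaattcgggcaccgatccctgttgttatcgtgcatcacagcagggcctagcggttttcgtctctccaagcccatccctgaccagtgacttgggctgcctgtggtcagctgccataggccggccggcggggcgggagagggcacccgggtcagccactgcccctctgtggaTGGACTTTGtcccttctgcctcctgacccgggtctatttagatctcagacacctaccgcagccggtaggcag
Kmo, chr1:175631943-175632192, plus strand: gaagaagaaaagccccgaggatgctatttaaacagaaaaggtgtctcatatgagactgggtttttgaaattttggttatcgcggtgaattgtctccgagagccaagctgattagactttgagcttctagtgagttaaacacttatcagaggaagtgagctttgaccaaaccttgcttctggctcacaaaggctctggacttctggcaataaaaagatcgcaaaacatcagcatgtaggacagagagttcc
Aass, chr6:23132987-23133236, minus strand: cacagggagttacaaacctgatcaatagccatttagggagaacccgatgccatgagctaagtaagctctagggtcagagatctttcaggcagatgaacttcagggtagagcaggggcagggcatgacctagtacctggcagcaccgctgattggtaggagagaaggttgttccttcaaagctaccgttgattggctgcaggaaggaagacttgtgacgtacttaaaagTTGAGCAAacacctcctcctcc

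RefSeq promoters were matched by symbol for 31 of the 39 enzymes. On both strands of the 250 bases, Aadat held the letters of an HNF4A motif, CAAAGTCCA, read on the opposite strand, and Aass held those of a C/EBP motif, TTGCNNAA, on the opposite strand as well. Of all 32851 promoters of this length, 0.384% held the first and 9.56% the second. Among the enzymes, the C/EBP letters were also in the promoters of Hal, Hgd and Qdpr, whose values overlapped between the groups. The glucocorticoid receptor half-site AGAACA was in 16.1% of all promoters and in those of Agxt, Bckdhb and Haao among the enzymes. No match to this half-site, to the cyclic AMP element TGACGTCA, to TATAAA, to the HNF1 motif or to the DR1 pair of half-sites lay in the 3 windows shown. The 3 windows differed in base composition, from 42.8% G and C in Kmo to 50% in Aass and 61.2% in Aadat. Aadat had 13 CpG pairs, Kmo 5 and Aass 4. The GENCODE gene of Kmo begins at 175620381, upstream of the window, and that of Aadat at 60505932, inside it, so for both the RefSeq start is not the outermost one.

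FPKM (fragments scaled by transcript length and by library size) is scaled for length, so levels can be set side by side between genes. The enzymes had WT means from 3.51 FPKM for Acmsd to 1109 for Hpd, with a median of 142.0, and 24 of them were at 100 FPKM or more. Only Acmsd and the serine dehydratase-like Sdsl, at 5.81 FPKM, had WT means under 10. Summed over the 39, the level was 9180, 9134 and 7764 FPKM in WT and 9712, 7622 and 9009 in HO, or 1.56% to 1.81% and 1.51% to 1.87% of each library's total. The groups overlapped in this sum.

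Of the 39 enzymes, 8 had all 3 HO values above all 3 WT values and 9 had all 3 below. Together these were 43.6% of the enzymes, against 27.9% of all tested genes. By direction, 20.5% of the enzymes were wholly higher against 6.42% of all tested genes, and 23.1% wholly lower against 21.4%, so the share of lower enzymes was near the background. An unadjusted p under 0.05 was reached by 16 enzymes, 7 higher and 9 lower, or 41.0% against 21.5% of all tested genes (5.01% higher and 16.5% lower). The median log2 change of the enzymes was -0.01, beside -0.09 for all tested genes. With quantile normalization it was -0.01, beside -0.0032, and with median-of-ratios scaling 0.11, beside 0.01. The enzymes had a median WT mean of 142.0 FPKM, while all tested genes were taken from a mean of 0.5 FPKM up. The shares were not matched for level. The median-of-ratios scaling moved the median of all genes up by 0.10 on the log2 scale, and the balance of directions moved with it. Under that scaling 10 enzymes were wholly higher (25.6%, against 12.6% of all tested genes) and only Amdhd1, Bckdhb and Cbs wholly lower (7.69%, against 11.7%), and the calls over all genes went from 43 higher and 108 lower to 70 and 64.

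**Figure D1:**
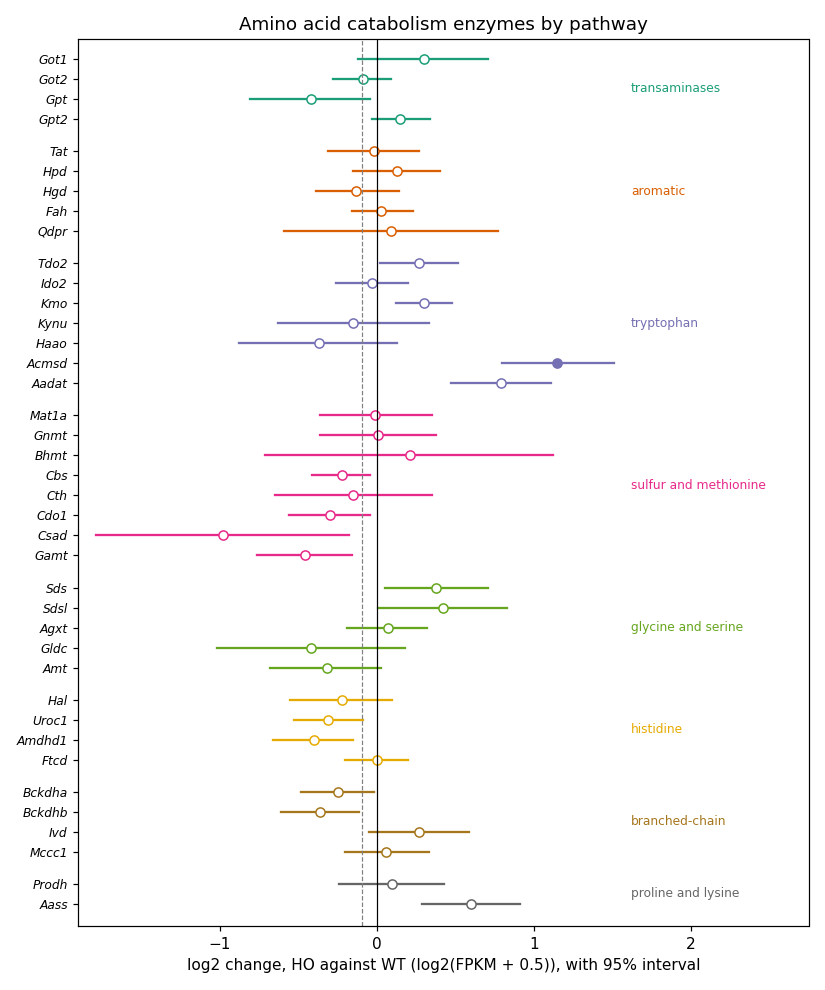
Log2 change of each of the 39 enzymes in HO against WT, on the log2(FPKM + 0.5) scale, with its 95% interval from limma (3 libraries per group). The filled point passed the test, open points did not, the solid line is 0 and the dashed line the median of all tested genes (-0.09). Acmsd, at 1.15, lies farthest to the right, and Csad, at -0.98, farthest to the left with a wide interval.

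The kynurenine pathway held the largest change. Acmsd, which encodes the decarboxylase that diverts the pathway away from quinolinate, was at 3.42, 3.49 and 3.61 FPKM in WT and at 9.70, 6.68 and 9.19 in HO. The WT libraries lay within a narrow range, and the lowest HO library was well above all of them. The log2 change was 1.15 ± 0.15 (SE, 95% interval 0.80 to 1.51, limma adjusted p = 0.0295), and Acmsd ranked 49 of all tested genes by p. In mm10 with the GENCODE annotation, Acmsd spans 127729413 to 127767978 of chromosome 1, plus strand. At the estimated depth its values stood for 185 to 232 read equivalents per library in WT and 465 to 588 in HO. The antisense gene 2900009J06Rik, which overlaps it, was at 0.224 to 0.453 FPKM in WT and 0.475 to 1.13 in HO, and its part in the Acmsd values was not tested. The call was lost in 5 of the 16 alternatives, among them those without WT replicate 1 (adjusted p = 0.135), WT replicate 2 (0.121) or HO replicate 3 (0.0837) and with no filter on low genes (0.0601). The log2 change stayed between 1.06 and 1.31 over all 16.

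Aadat encodes the transaminase that acts on kynurenine to give kynurenate and on 2-aminoadipate in lysine breakdown. It was at 43.0, 43.3 and 45.7 FPKM in WT and 91.3, 78.0 and 62.9 in HO, again without overlap. Its log2 change of 0.79 ± 0.14 (SE, 95% interval 0.47 to 1.11) did not pass (limma adjusted p = 0.0515). It passed with a filter at 1 FPKM (0.0485), median-of-ratios scaling (0.0423), quantile normalization (0.0406) and array weights (0.0332). Aadat is on chromosome 8 from 60505932 to 60545677, and no annotated gene overlaps it.

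Kmo, the kynurenine 3-monooxygenase, was at 121.5, 112.2 and 118.1 FPKM in WT and 140.7, 141.7 and 149.9 in HO. The step is small, a ratio of 1.23, but both groups were tight (limma adjusted p = 0.0971). Fh1, which overlaps Kmo on the other strand, had 62.9 to 64.8 FPKM in WT and 80.3 to 91.5 in HO, and the sources used here do not state whether counting used strand. Tdo2, the dioxygenase that opens the ring of tryptophan in hepatocytes, had 459.8, 463.0 and 407.2 FPKM in WT and 593.2, 485.6 and 530.2 in HO. Its lowest HO value lay only a little above the highest WT value (log2 change 0.27, limma adjusted p = 0.199). The other ring-opening enzyme Ido2 was at 34.0 to 34.5 in WT and 29.7 to 35.8 in HO.

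Kynu and Haao, the steps between Kmo and Acmsd, did not share this direction. Kynu, the kynureninase, had 75.2, 76.3 and 53.0 FPKM in WT and 78.9, 52.15 and 53.95 in HO. Haao, the dioxygenase whose product Acmsd decarboxylates, had 276.2, 283.6 and 198.9 in WT and 179.2, 155.0 and 257.5 in HO. Both overlapped between the groups, with WT replicate 3 the lowest of the WT libraries for each. Of the 7 enzymes, 4 were wholly higher (57.1%, against 6.42% of all tested genes), none wholly lower (against 21.4%), and the median log2 change was 0.27. Of 5 measured tryptophan genes outside the 39, none passed (limma, 1 at an unadjusted p under 0.05, Kyat1). Qprt, which turns quinolinate into the NAD precursor, was at 80.5 to 89.5 FPKM in WT and 70.1 to 86.5 in HO. The kynurenine transaminase Kyat1 was at 62.0 to 76.5 and 82.5 to 87.8, without overlap (limma adjusted p = 0.121).

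**Figure D2:**
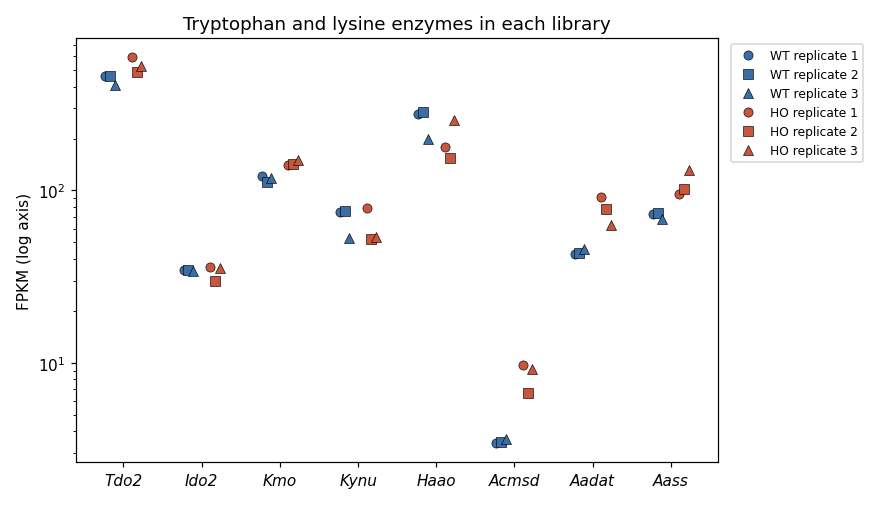
FPKM on a log axis of the 7 tryptophan enzymes and of Aass in each of the 6 libraries, WT in blue and HO in red, with the replicate number as the marker. For Tdo2, Kmo, Acmsd, Aadat and Aass all 3 HO points lie above the WT points, while Ido2, Kynu and Haao overlap.

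A ratio of genes within a library does not depend on how libraries are scaled to each other. Such ratios were taken for 12 pairs, chosen after the values were seen, and 5 of them did not overlap between the groups. In each of these 5 the first gene (Acmsd, Gpt, Amdhd1 or Tdo2) was already without overlap by itself. These ratios are therefore not evidence apart from the values of the single genes. The other 7, which overlapped, were Kmo to Kynu, Got1 to Got2, Csad to Cdo1 and Bckdhb to Bckdha (exact permutation p = 0.2 each) and Sds to Sdsl, Gldc to Amt and Cbs to Cth (exact permutation p = 0.8 each). With 3 libraries against 3, an exact two-sided permutation test cannot give a p under 0.1, so none can pass, with or without adjustment over the 12. Per 100 FPKM of Haao there were 1.24, 1.23 and 1.81 of Acmsd in WT and 5.41, 4.31 and 3.57 in HO. The ratio was thus 3.10 times as large in HO without overlap (exact permutation p = 0.1). Per 100 FPKM of Qprt, the Acmsd level was 4.06 ± 0.257 in WT and 10.8 ± 1.08 in HO (SD, n = 3 each, exact permutation p = 0.1). Tdo2 per 100 Ido2 was 1330, 1350 and 1200 in WT and 1660, 1640 and 1490 in HO, also without overlap.

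**Figure D3:**
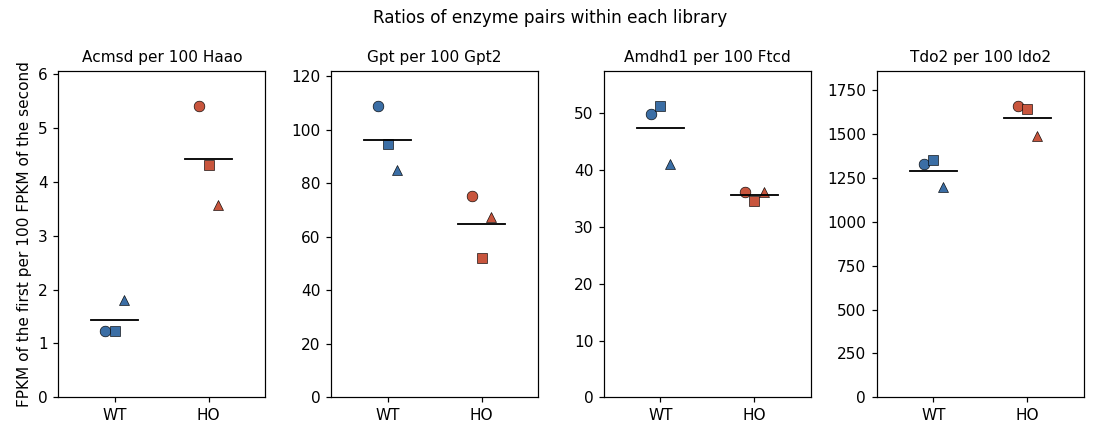
FPKM of one enzyme per 100 FPKM of another in the same library, for 4 of the 5 pairs that did not overlap out of 12 taken, with the mean of each group as a line and the replicate number as the marker (circle 1, square 2, triangle 3). The axes start at 0. Acmsd per 100 Haao and Tdo2 per 100 Ido2 are higher in every HO library, and Gpt per 100 Gpt2 and Amdhd1 per 100 Ftcd lower.

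For lysine, Aass, the bifunctional enzyme of the first steps of lysine breakdown in mitochondria, was at 72.8, 73.8 and 68.2 FPKM in WT and 94.8, 102.5 and 131.8 in HO. All HO values were above all WT values, with a log2 change of 0.60 ± 0.13 (SE, 95% interval 0.29 to 0.91, limma adjusted p = 0.0765). Aass lies on chromosome 6 from 23072173 to 23132986. Aadat, described with tryptophan, acts later in the same chain. Prodh, the proline dehydrogenase, was at 63.6, 54.7 and 64.0 in WT and 76.6, 53.6 and 66.5 in HO, and the groups overlapped.

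None of the 4 transaminases passed (limma, 1 lower at an unadjusted p under 0.05), and 3 of them did not overlap between the groups, as 27.9% of all tested genes did not. Gpt, the alanine transaminase long used in serum as a marker of liver damage, was at 160.5, 135.7 and 118.9 FPKM in WT and 114.0, 82.4 and 113.7 in HO (log2 change -0.42 ± 0.16, SE, limma adjusted p = 0.199). Its mitochondrial relative Gpt2 was at 147.5, 143.2 and 139.8 in WT and 151.8, 158.2 and 168.5 in HO, with a limma adjusted p = 0.316. The groups did not overlap for either gene, and neither passed. Gpt per 100 Gpt2 went from 109, 94.8 and 85.1 in WT to 75.1, 52.1 and 67.5 in HO, again without overlap (exact permutation p = 0.1). Mitochondrial Got2 was at 220.8, 213.6 and 214.4 in WT and 213.2, 189.9 and 205.6 in HO, where the highest HO value was just under the lowest WT value. Cytosolic Got1 was at 68.2, 57.8 and 49.1 in WT and 76.6, 56.45 and 83.4 in HO and overlapped.

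None of the 4 histidine enzymes passed (limma, 2 lower at an unadjusted p under 0.05), and those 2 were wholly lower in HO. Of all tested genes 16.5% were lower at that p and 21.4% wholly lower. They act in order, Hal (histidine ammonia-lyase), Uroc1 (urocanate hydratase), Amdhd1 (imidazolonepropionase) and Ftcd (formiminotransferase, which passes the last carbon to folate). Uroc1 was at 154.8, 154.8 and 141.6 FPKM in WT and 130.8, 109.9 and 123.8 in HO (log2 change -0.31 ± 0.09, SE, limma adjusted p = 0.130). Amdhd1 was at 83.7, 87.3 and 73.4 in WT and 67.5, 55.6 and 61.5 in HO (log2 change -0.40 ± 0.11, SE, limma adjusted p = 0.103). Hal had 55.3, 52.4 and 51.95 in WT and 53.8, 37.0 and 47.45 in HO, so that HO replicate 1 lay within the WT range. Ftcd had means of 172.4 ± 5.72 in WT and 172.8 ± 13 in HO (SD, n = 3), with a 95% interval of the log2 change from -0.20 to 0.20. Amdhd1 per 100 Ftcd was 49.8, 51.3 and 41.0 in WT and 36.1, 34.5 and 36.1 in HO. Hal and Amdhd1 are neighbours on chromosome 10, on opposite strands with their ends 4033 bases apart, while Uroc1 is on chromosome 6. The median of the 4 was -0.27, and -0.16 without HO replicate 2, the lowest HO library for all of them.

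In the sulfur and methionine group, 3 of 8 enzymes were wholly lower in HO (37.5%, against 21.4% of all tested genes). None passed (limma, 4 lower at an unadjusted p under 0.05, or 50%, against 16.5% of all tested genes). Cbs, the cystathionine synthase that commits homocysteine to cysteine, was at 151.4, 152.4 and 151.3 FPKM in WT and 138.9, 125.9 and 125.5 in HO. The WT libraries differed by 0.426% (coefficient of variation, the smallest among the enzymes), and the log2 change was -0.22 ± 0.08 (SE, limma adjusted p = 0.169). Cdo1, which oxidizes cysteine to its sulfinate, was at 695.7, 727.0 and 584.7 in WT and 557.7, 566.2 and 502.6 in HO, with a limma adjusted p = 0.182. Gamt, which uses S-adenosylmethionine to make creatine, was at 174.3, 169.2 and 138.9 in WT and 130.7, 102.0 and 117.9 in HO (log2 change -0.46 ± 0.13, SE, limma adjusted p = 0.112). Csad, which decarboxylates the sulfinate on the way to taurine, had the lowest estimate of the 39 but varied widely, with 91.0, 194.8 and 144.8 in WT and 53.95, 107.0 and 57.0 in HO. The groups overlapped, and the 95% interval of its log2 change ran from -1.79 to -0.18 (limma adjusted p = 0.167). Cth, the cystathionine lyase, overlapped as well, with 156.5, 173.4 and 109.9 in WT and 164.3, 107.4 and 123.1 in HO. Cdo1 and Csad follow each other in taurine synthesis, and Csad per 100 Cdo1 was 13.1, 26.8 and 24.8 in WT and 9.67, 18.9 and 11.3 in HO, with overlap.

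Enzymes of the methionine cycle had close means in both groups, with wide intervals. Mat1a, which makes S-adenosylmethionine, had 743.3 ± 26.1 FPKM in WT and 750.0 ± 156.0 in HO, and Gnmt, which spends it on glycine, 648.1 ± 60.7 and 658.6 ± 140.0 (SD, n = 3). The 95% intervals of their log2 changes ran from -0.36 to 0.35 and from -0.36 to 0.38. Bhmt, which remakes methionine from homocysteine with betaine, varied most within groups, with 1359, 1222 and 624.0 in WT and 1813, 749.9 and 1170.0 in HO. It is the only enzyme of the 39 on chromosome 13, where it lies 3.8 Mb before Lncenc1 (97434970 to 97497007).

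Of the 5 glycine and serine enzymes, the dehydratases Sds and Sdsl had higher values in HO. Sds, the serine dehydratase that makes pyruvate in periportal hepatocytes, was at 152.8, 120.5 and 169.1 FPKM in WT and 194.7, 171.5 and 206.3 in HO (log2 change 0.38 ± 0.14, SE, limma adjusted p = 0.184). Its neighbour Sdsl, 3715 bases away on chromosome 5 and on the opposite strand, was at 4.29, 6.42 and 6.73 in WT and 7.53, 7.32 and 8.57 in HO (log2 change 0.42 ± 0.17, SE, limma adjusted p = 0.227). Neither gene's groups overlapped, and neither passed. Of the 5, 2 were wholly higher (40.0%, against 6.42% of all tested genes) and none wholly lower (against 21.4%). In limma 2 were higher at an unadjusted p under 0.05 (40.0%, against 5.01%) and none lower (against 16.5%). Plbd2, which overlaps Sds on the other strand, was at 20.2 to 25.4 FPKM in WT and 26.3 to 27.4 in HO. Gm15690, on that strand too, was at 5.84 to 6.38 and 3.15 to 4.5. Their part in the Sds values was not tested. The glycine cleavage enzymes Gldc and Amt had lower means in HO with overlap. Gldc was at 58.1, 52.8 and 34.7 in WT and 48.7, 32.05 and 28.2 in HO, and Amt at 27.0 to 37.35 and 23.0 to 29.8. Agxt, the peroxisomal enzyme that turns glyoxylate into glycine, was at 129.8 ± 10.5 and 136.4 ± 14.1 (SD, n = 3).

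Of the branched-chain enzymes, both subunits of the decarboxylase of the branched-chain ketoacid dehydrogenase complex were wholly lower in HO, and none of the 4 enzymes passed (limma, 2 lower at an unadjusted p under 0.05). Of all tested genes 21.4% were wholly lower and 16.5% lower at that p. Bckdha was at 129.9, 125.5 and 125.6 FPKM in WT and 120.6, 97.7 and 103.3 in HO (log2 change -0.25 ± 0.10, SE, limma adjusted p = 0.204). Bckdhb was at 55.9, 53.1 and 47.1 in WT and 42.9, 36.5 and 42.0 in HO (log2 change -0.36 ± 0.10, SE, limma adjusted p = 0.119). Bckdhb per 100 Bckdha was 40.9 ± 2.97 in WT and 37.8 ± 2.59 in HO (SD, n = 3), with overlap. The enzymes of leucine breakdown after this step, Ivd and Mccc1, overlapped between the groups. Ivd was at 35.0 to 39.6 in WT and 37.4 to 53.2 in HO, and Mccc1 at 18.6 to 22.5 and 19.4 to 23.4.

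**Figure D4:**
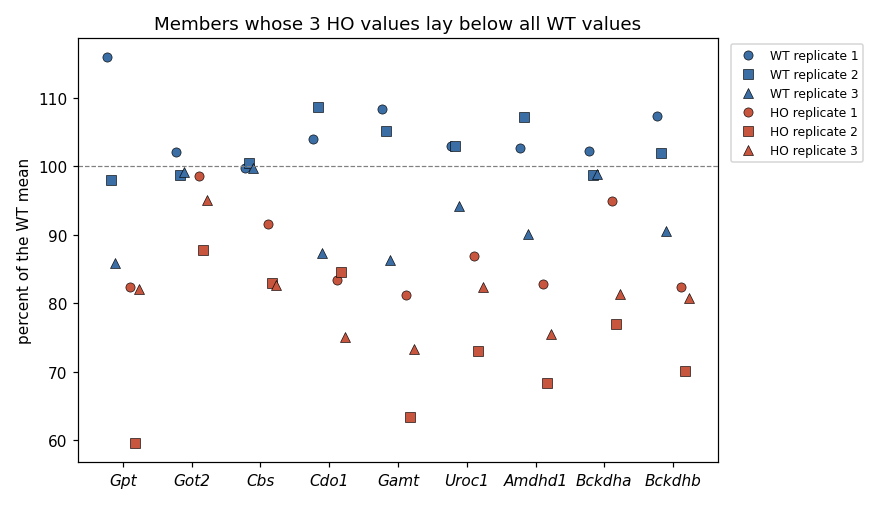
FPKM in each library as a percent of the gene's WT mean, for the 9 enzymes whose HO values all lay below the WT values, with WT in blue, HO in red and the replicate number as the marker. The vertical axis does not start at 0. The HO points lie between 59.6% and 98.6% of the WT mean, and none of the 9 passed the test.

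For phenylalanine and tyrosine, the values of all 5 enzymes overlapped. Tat, the tyrosine transaminase, was at 462.2, 377.5 and 398.7 FPKM in WT and 384.3, 373.7 and 464.0 in HO, with a 95% interval of the log2 change from -0.31 to 0.27. Hpd, the next enzyme, was at 1109 ± 115.0 and 1211 ± 109.0, Hgd at 293.0 ± 11.9 and 269.3 ± 35.4, and Fah, which ends the chain, at 292.4 ± 3.70 and 299.7 ± 20.2 (SD, n = 3). Qdpr, which recycles the cofactor of phenylalanine hydroxylase, spread in HO, with 164.6, 92.9 and 226.3 against 138.8 to 147.0 in WT. Over all 39 enzymes, the 95% interval lay within 0.5 of 0 on the log2 scale for 16, so for these a larger difference in either direction was outside the interval. The median coefficient of variation within a group was 8.56% in WT and 12.3% in HO.

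A library that stood low across the enzymes bears on all of these values. HO replicate 2 was the lowest HO library for 29 of the 39 enzymes (74.4%), against 36.5% of all tested genes. It was the highest for 2 enzymes, against 29.9% of all tested genes. WT replicate 3 was the lowest WT library for 24 (61.5%, against 34.9% of all tested genes). HO replicate 1 was the highest HO library for 27 of the 39, against 37.5% of all tested genes. Acute phase genes, which the liver raises in inflammation, were uneven over the HO libraries too: 26 of them summed to 15121 FPKM in HO replicate 1, 34750 in replicate 2 and 31932 in replicate 3, and to 11501 to 14643 in WT. Their part in the enzyme values was not tested. Leaving out HO replicate 1, HO replicate 2 or WT replicate 3 put the median log2 change of the 39 at -0.07, 0.05 or -0.04. Acmsd passed in each of these fits, in the same order with limma adjusted p = 0.0463, 0.0264 and 0.0388.

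**Figure D5:**
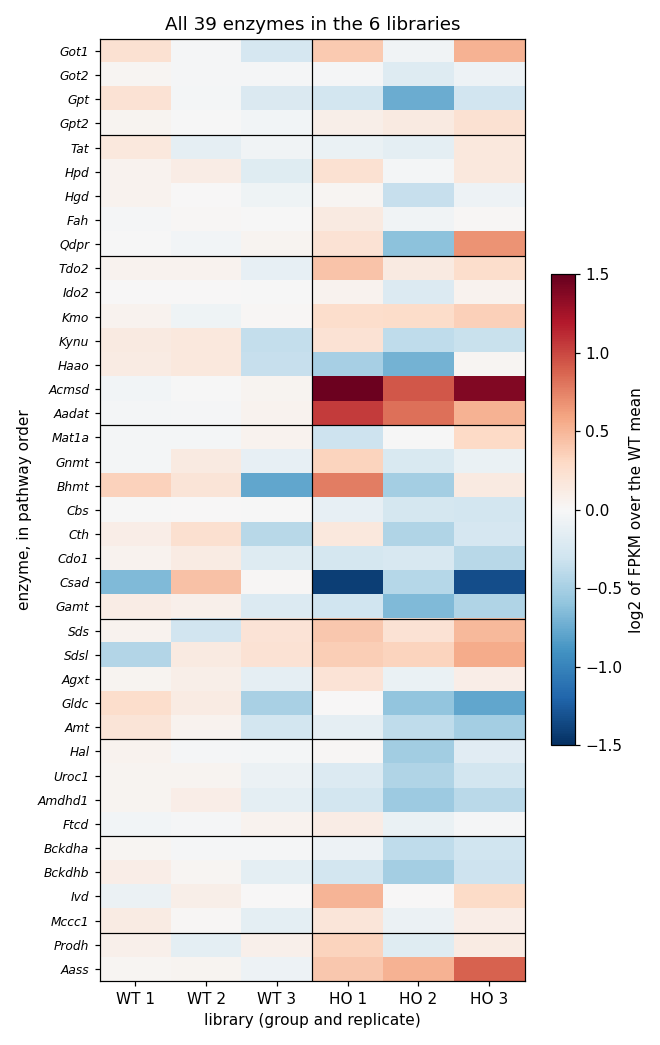
Log2 of FPKM over the WT mean for the 39 enzymes (rows, by pathway, separated by lines) in the 6 libraries (columns), red above and blue below the WT mean. Acmsd, Aadat and Aass are red in all 3 HO libraries, and HO replicate 2 is the lowest HO library for 29 of the rows.

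Beyond the 39, 76 further genes of amino acid breakdown were found in the table, 75 of them tested. None passed (limma, with 1 higher and 13 lower at an unadjusted p under 0.05, where all tested genes had 5.01% and 16.5%). Wholly higher was 1 gene (1.33%, against 6.42% of all tested genes) and wholly lower were 18 (24.0%, against 21.4%), so the share of lower genes was near the background. The median log2 change was -0.13, beside -0.09 for all tested genes. Of those with the smallest p, 3 are described, all with lower values in HO. Hadh, a dehydrogenase shared with fatty acid oxidation, was at 236.8 ± 27.8 FPKM in WT and 156.4 ± 13.3 in HO, with a limma adjusted p = 0.0635. Hoga1, of hydroxyproline breakdown, was at 66.6 ± 4.39 and 49.0 ± 2.63. Pcbd1, which regenerates the cofactor of phenylalanine hydroxylase, was at 298.1 ± 24.4 and 217.8 ± 11.9 (SD, n = 3 for each). In the branched-chain part of this list, 19 of 22 genes had a negative log2 change, where 8554 of the 13250 tested genes had one. Of the 22, 9 were wholly lower (40.9%, against 21.4% of all tested genes) and none wholly higher (against 6.42%). In limma 6 were lower at an unadjusted p under 0.05 (27.3%, against 16.5% of all tested genes). The median of the 22 was -0.18. With median-of-ratios scaling 14 of the 22 were negative, beside 6487 of all tested genes, and the median was -0.07.

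Of 24 tested amino acid transporters, 1 was called higher and none lower (4.17% called, against 1.14% of all tested genes). Wholly higher were 8 (33.3%, against 6.42% of all tested genes) and wholly lower 4 (16.7%, against 21.4%). At an unadjusted p under 0.05 in limma, 8 were higher and 2 lower, where all tested genes had 5.01% and 16.5%. Slc16a10, which carries aromatic amino acids across the cell membrane, was at 22.2, 19.4 and 23.3 FPKM in WT and 35.3, 31.7 and 39.9 in HO, without overlap (log2 change 0.71 ± 0.12, SE, limma adjusted p = 0.0484). The call was lost when any of the 6 libraries was left out, with adjusted p from 0.0510 to 0.179. Of 22 regulators and their indicator genes, Fkbp5, a textbook target of the glucocorticoid receptor, rose from 9.99, 18.2 and 17.7 FPKM in WT to 39.8, 53.2 and 43.2 in HO (log2 change 1.57 ± 0.24, SE, limma adjusted p = 0.0372). Fkbp5 was the only call in this list (4.55%, against 1.14% of all tested genes called). Its call was lost without WT replicate 1 or 2 and without any 1 of the HO libraries, with adjusted p from 0.0515 to 0.112. Of other targets of that receptor in the list, Per1 was at 8.61 ± 1.63 in WT and 5.53 ± 0.579 in HO, wholly lower (limma adjusted p = 0.0972). Tsc22d3 was at 53.5 ± 27.2 and 47.9 ± 19.3 and Dusp1 at 16.0 ± 5.30 and 7.84 ± 2.48 (SD, n = 3), both with overlap. Among the 39 enzymes, the glucocorticoid target Tdo2 was wholly higher without passing and Tat overlapped. The part of glucocorticoids in these values was not tested. The receptor gene Nr3c1 was at 12.7 ± 0.220 and 14.0 ± 0.567 (SD, n = 3).

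Since many of these enzymes are zonated, genes of either end of the liver lobule were counted. Of 16 periportal genes, Cps1, the entry enzyme of the urea cycle, rose from 358.5, 397.5 and 441.0 FPKM in WT to 638.7, 695.1 and 853.3 in HO (log2 change 0.86 ± 0.13, SE, limma adjusted p = 0.0422). No other was called (6.25% called, against 1.14% of all tested genes). At an unadjusted p under 0.05 in limma, 4 were higher and 2 lower, where all tested genes had 5.01% and 16.5%. Wholly higher were 5 (31.2%, against 6.42%) and wholly lower 3 (18.8%, against 21.4%). The median log2 change was -0.02, beside -0.09 for all tested genes. Leaving out either of WT replicates 1 and 2, or either of HO replicates 2 and 3, ended the call of Cps1. None of 17 pericentral genes passed (limma, with 2 higher and 6 lower at an unadjusted p under 0.05, where all tested genes had 5.01% and 16.5%). Wholly higher were 3 (17.6%, against 6.42% of all tested genes) and wholly lower 4 (23.5%, against 21.4%). Their median was -0.22, beside -0.09 for all tested genes. The 4 with the smallest p were Nkd1 (1.75 ± 0.136 FPKM in WT and 0.813 ± 0.148 in HO), Cyp2c29 (571.6 ± 22.0 and 457.5 ± 48.6), Cyp1a2 (238.4 ± 14.3 and 333.4 ± 68.9) and Lgr5 (2.64 ± 0.429 and 1.49 ± 0.549). Of 26 acute phase genes, Socs3 and Saa4 were called higher and none lower (7.69% called, against 1.14% of all tested genes). All 26 had a positive log2 change, with a median of 0.87, beside -0.09 for all tested genes. Among them 13 were wholly higher (against 6.42% of all tested genes) and none wholly lower (against 21.4%). In limma 19 were higher at an unadjusted p under 0.05 and none lower, where all tested genes had 5.01% and 16.5%.

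Markers of other cell types were low beside those of hepatocytes. In whole tissue, fewer cells of a type and less RNA per cell cannot be told apart. The 7 measured hepatocyte markers summed to 45683 to 48523 FPKM in WT and 40444 to 44696 in HO, without overlap. Alb alone gave 31200 to 33320 of this in WT and 25340 to 29600 in HO, so the sum mostly follows Alb. Of the same markers, Cps1 was called higher, and Hnf4a was wholly higher, at 146.2 ± 26.4 in WT and 203.4 ± 33.9 in HO (SD, n = 3). The 8 Kupffer cell and macrophage markers summed to 75.5 to 134 in WT and 62.3 to 81.5 in HO. The 6 stellate cell and fibroblast markers summed to 84.8 to 107 and 56.8 to 72.0, without overlap. The 6 endothelial markers summed to 41.5 to 50.6 and 38.7 to 43.9, with overlap. Those of bile duct cells, also 6, summed to 24.2 to 27.6 and 20.1 to 23.0, without overlap. The 6 neutrophil markers summed to 1.18 to 3.60 in WT and 2.78 to 6.86 in HO, with Ly6g and Camp listed at 0 in all libraries. The 6 markers of T and B cells summed to 1.53 to 1.85 FPKM in WT and 1.15 to 1.21 in HO, low values without overlap. The 1 kidney tubule marker in the table was at 0.0236 to 0.0764 FPKM in WT and 0.0887 to 0.214 in HO, also low and without overlap. Markers of pancreatic acinar cells, 2 in all, summed to 18.0 to 23.2 and 21.7 to 42.1, with overlap. The level set for testing was reached by all listed markers of Kupffer cells and macrophages, stellate cells and fibroblasts, and endothelium. Of the bile duct markers 4 reached it, of the neutrophil markers 2 and of the pancreatic markers 1. None of the T and B cell or kidney tubule markers did. No tested marker of these other cell types passed, and the part of those cells in the enzyme values was not tested.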

How the data were processed

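Total RNA of mouse liver was made into 6 directional Illumina libraries, per the labels' protocols. The authors deposited 1 table with an FPKM value for each gene in each sample. HISAT2, HTSeq, DESeq2, StringTie and the build mm10 are listed in the submitters' processing notes, without versions or roles, and no source used here says which tool made the table. Columns were matched to samples by group and replicate number. Gene positions came from GENCODE mouse release 21, which held all 24034 identifiers. FPKM values are not counts: 31.8% to 36.5% of low values were whole multiples of the commonest step within 0.02 reads, too few to recover reads, and count models were not used. The step size gave depths of 19100000 to 24600000 read equivalents. Summed FPKM was 495570 to 518218 per library.

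Genes whose mean reached 0.5 FPKM were tested on log2(FPKM + 0.5) with limma 3.58.1 in R 4.3.3 (2 groups, no block, eBayes with a trend, two-sided, Benjamini-Hochberg adjustment over all tested genes at 0.05). Fold values are ratios of mean FPKM, and log2 changes understate those of low genes. Alternatives were pseudocounts of 1 and 0.1, no filter, a filter at 1 FPKM, quantile normalization, median-of-ratios scaling, array weights (statmod 1.5.0), robust eBayes, eBayes without trend, a replicate block, and leaving out each library. The fit was tested on simulated data. The members and lists were chosen with earlier results of these data known. The named genes are the 39 enzymes, with values in each library for those past the threshold, those without overlap and a defining enzyme of each pathway, and, from each further list, the genes past the threshold or else the 4 with the smallest p. Any other gene of a further list that is named was chosen after its values were seen. Some items that this rule would name are not reported here. Promoters are from RefSeq, build GRCm38.p6, matched by symbol. Python 3.11.15, pandas 2.3.3, scipy 1.17.1 and matplotlib 3.10.9 were used.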

Additional observations from a re-analysis of the deposited data

How the results depend on the processing

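Acmsd was called in 11 of the 16 alternatives, and the other enzymes' calls were rarer. Over all genes, against 43 higher and 108 lower, the fits gave 23 higher with a pseudocount of 0.1, 7 and 33 with no filter, 70 and 64 with median-of-ratios scaling, 72 lower with quantile normalization, 18 and 59 without a trend and 249 and 692 with array weights. Leaving out 1 library gave 2 to 91 higher and 4 to 168 lower. Of the enzymes, 0 were called with no filter and 2 (Acmsd and Aadat) with a filter at 1 FPKM, median-of-ratios scaling or quantile normalization. Array weights called 4 higher (Aadat, Aass, Acmsd and Kmo) and 2 lower (Amdhd1 and Gamt), and 6 lower among the further amino acid genes. Leaving out 1 library gave 0 to 1 higher and none lower of the enzymes, and 0 to 1 lower of the further genes (Hadh, without WT replicate 3).

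With the replicate number as a block, 10 genes rose and 15 fell and 0 enzymes were called (Acmsd at adjusted p = 0.0648). Same-numbered libraries did not deviate together (correlations of 0.066, -0.028 and 0.015), so the numbers are not taken to pair samples, and not every library correlated best with its own number.

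The sign held for 28 of the 39 enzymes in all alternatives. It turned at least once for the other 11, whose estimates lay between -0.09 and 0.21. With median-of-ratios scaling Got2 was at 0.02, Tat at 0.093, Ido2 at 0.083 and Mat1a at 0.11. With quantile normalization Ido2 was at 0.061 and Gnmt at -0.047. With array weights Tat was at 0.04, Mat1a at 0.10, Gnmt at -0.091 and Ftcd at -0.0064. Over the fits with 1 library left out, log2 changes ran as follows: Tat -0.12 to 0.063, Fah -0.018 to 0.077, Qdpr -0.20 to 0.44, Ido2 -0.075 to 0.059, Mat1a -0.16 to 0.14, Gnmt -0.16 to 0.12, Bhmt -0.14 to 0.52, Ftcd -0.056 to 0.05, Mccc1 -0.0073 to 0.14, Prodh -0.021 to 0.23. The causes were not tested. Each group has 3 libraries, and the 95% interval lay within 0.5 of 0 on the log2 scale for 16 of the 39 enzymes. Acmsd rests on 185 to 588 read equivalents per library.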
